A study of Mus musculus with 20 samples.

Results

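The comparison set hippocampal cultures that received zinc together with a glutamate pulse against cultures that received the same pulse without added zinc, and followed every gene of the counts table. It took 10 of the series' 20 messenger RNA libraries, 5 from each of these groups, assigned to their groups by the labelled treatment. Of 24419 genes counted, 14411 had enough reads in enough libraries to be tested, and these held 99.98% of all counts.

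All cultures came from C57BL6 mice, with hippocampi of embryonic day 18 pooled from 4 embryos before dissociation, and no genotype beyond the strain is labelled. They were kept for 10 days in vitro, with 4 µM of the antimitotic drug cytosine arabinoside from day 3 to day 6. The zinc group was exposed for 2 min to 50 µM glutamate with 10 µM ZnCl2, and the glutamate group for 2 min to 50 µM glutamate. The TPA group had 10 µM TPA, tris(2-pyridylmethyl)amine, which chelates zinc, for 1 min beforehand and again during 50 µM glutamate. The control group, whose treatment is labelled normal media, had imaging medium alone for 2 min. Every group was then returned to its own medium at 37 °C for 90 min before lysis. Zinc was never given without glutamate in these groups, so an effect of zinc on unstimulated cultures is not measured. Replicates of a group are called biological in the labels, but the tissue was pooled, and the p-values below measure only the spread between these libraries. The cultures hold several cell types in 1 lysate, so fewer cells of a type and less RNA per cell cannot be told apart.

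Zinc is stored with glutamate in vesicles of many forebrain synapses, where the transporter ZnT3 (gene Slc30a3) loads it. Released zinc inhibits NMDA receptors, most tightly those with the GluN2A subunit, and acts on several other channels and receptors. Calcium that enters through NMDA receptors and voltage-gated channels drives immediate early genes, which encode transcription factors and synaptic proteins, and a later wave follows them. Inside cells, free zinc activates the factor MTF-1, which binds metal response elements before the metallothionein genes and before Slc30a1, the gene of an exporter at the plasma membrane.

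With added zinc, no gene passed an adjusted p of 0.05 in either direction (edgeR quasi-likelihood test with Benjamini-Hochberg adjustment over all genes, 0 of 14411, 0%). The smallest p-values among the genes named here belonged to Klf4, a zinc-finger factor of the early response, which averaged 1.22 ± 0.304 CPM with zinc and 2.11 ± 0.507 CPM with glutamate alone (SD, n = 5 each; CPM are scaled counts), and to Icmt, a methyltransferase of prenylated proteins, at 44.8 ± 1.81 CPM with zinc and 50.2 ± 1.04 CPM with glutamate alone. Both had an edgeR adjusted p of 0.585. At an unadjusted p under 0.05 stood 862 genes (5.98%), where 721 would be expected of uniform p-values; 387 of them were higher with zinc (2.69%) and 475 lower (3.3%). This count was 487 (3.45%) when the 2 groups were fitted alone and 569 without zinc 3, both under the expected number. All 5 zinc libraries lay above all 5 glutamate libraries for 53 genes (0.368%) and below them for 48 genes (0.333%). With 5 libraries against 5, some genes separate in this way by chance alone, and their expected number was not computed. Over all tested genes the median log2 fold change was 0.00065, with 50.3% positive and 49.7% negative. Below, a value given with an SE is a log2 fold change of zinc with glutamate over glutamate alone, unless another pair is named. The gene lists were chosen with earlier results of these data known, so a list's share at an unadjusted p under 0.05 is a description only.

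Limma-voom on the same counts also called 0 genes, with 860 at an unadjusted p under 0.05, and DESeq2 called 2, of which Icmt is named here, with 871 at an unadjusted p under 0.05. In the authors' deposited table of this comparison 1 of 20200 genes with an adjusted p lies under 0.05, and Klf4 and Icmt follow at 0.0503 there. A limma-voom fit that gave each library a weight called 107 genes, 30 higher and 77 lower, with 2657 at an unadjusted p under 0.05 (18.4%). Without glutamate 2, edgeR called 3 genes, all lower, 1 of them Miat.

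How large a change could have gone unseen differs by gene. The 95% interval of the zinc over glutamate ratio lay within 1.5-fold in both directions for 12615 genes (87.5%) and within 2-fold for 13949 (96.8%). For the 12532 tested genes that averaged 1 CPM or more it lay within 1.5-fold for 12273 (97.9%). These intervals are for single genes and carry no adjustment for the number of genes.

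**Figure D1:**
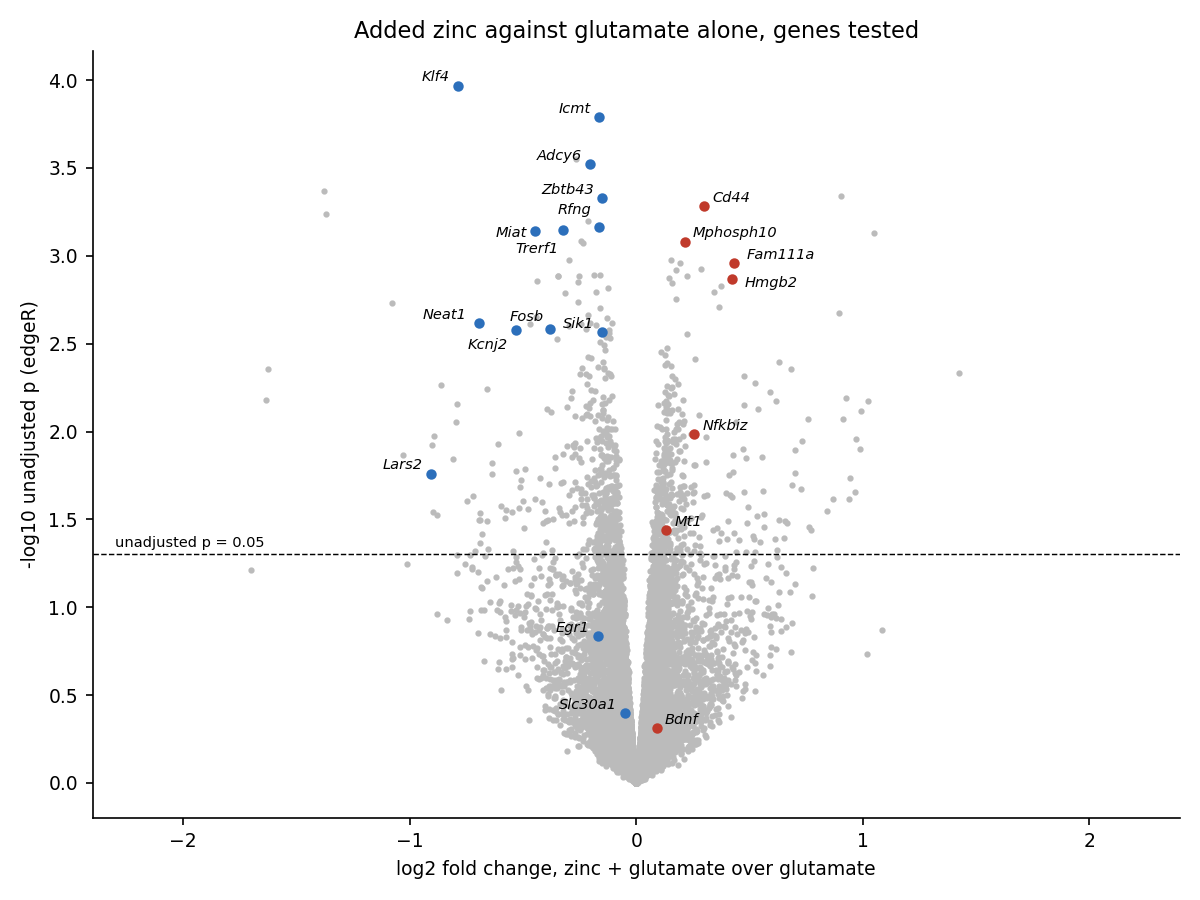
Each point is 1 of 14410 tested genes, with the log2 fold change of the zinc group over the glutamate group on the x axis and the -log10 of the unadjusted edgeR p on the y axis; labelled genes are red where higher with zinc and blue where lower. The 2 sides are filled about evenly, Klf4 is the highest labelled point at a log2 fold change of -0.79, and Mt1 lies just above the dashed line at 0.05.

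Depth was even, with 33445137 to 38435627 counts per zinc library and 35559330 to 40934630 per glutamate library, so that 3 counts stood for 0.0733 to 0.0897 CPM (counting error only). Libraries did differ within their groups: the root mean square deviation of a library from the mean of the other 4 of its group was 0.299 on the log2 scale for zinc 5, 0.271 for zinc 4, 0.311 for glutamate 5 and 0.300 for glutamate 4, and 0.189 to 0.241 for the other 6. In the weighted limma-voom fit these 4 libraries had weights of 0.360, 0.296, 0.371 and 0.284. Without zinc 5, glutamate 5 and glutamate 4 the count past the threshold was 1, with 1958 genes at an unadjusted p under 0.05, and without zinc 4 it was 2, with 1601. The deviation of each library from its own group mean was set against transcript GC content. The slope was 0.126 log2 units per 10% GC in zinc 4, -0.0738 in zinc 5 and 0.085 in glutamate 4. Genes higher with zinc at an unadjusted p under 0.05 had a mean GC of 45.44% and a median length of 2208 bases, those lower had 53.19% and 3881 bases, and all tested genes had 49.74% and 3009 bases. The part of GC content and length in the fold changes was not tested beyond a GC offset, which left the count at 0.

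Metallothioneins bind zinc in the cytosol and are the best known targets of MTF-1. MTF-1 binds metal response elements near these genes, and capitals below mark their core letters TGCACNC or TGCGCNC on either strand. The bases before the annotated starts of Mt1 and Mt2 are shown. They are RefSeq sequences of GRCm38.p6, the 250 bases before the annotated start, on the plus strand, at chr8:94178839-94179088 for Mt1 and chr8:94172368-94172617 for Mt2.
Mt1: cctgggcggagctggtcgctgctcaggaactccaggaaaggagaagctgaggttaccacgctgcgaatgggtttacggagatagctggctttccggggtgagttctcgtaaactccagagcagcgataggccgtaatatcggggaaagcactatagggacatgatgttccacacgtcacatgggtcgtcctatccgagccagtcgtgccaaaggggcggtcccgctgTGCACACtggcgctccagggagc
Mt2: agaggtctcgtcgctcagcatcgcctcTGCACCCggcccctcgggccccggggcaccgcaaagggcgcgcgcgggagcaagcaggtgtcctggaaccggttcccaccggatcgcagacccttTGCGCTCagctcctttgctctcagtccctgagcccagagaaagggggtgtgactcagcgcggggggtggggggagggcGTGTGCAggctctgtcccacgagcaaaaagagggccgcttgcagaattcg
The window of Mt1 held 1 core, that of Mt2 held 3, and that of Slc30a1 held 1, while no match was found before Mt3 and Slc39a10. Such a core occurred in 21.4% of 32851 promoter windows of this length, and 2 or more in 5.17%, so a match is a description of letters and not a site. Bases after the annotated start were not searched, so elements beyond it are missed. The numbers of cores given here are therefore not a full tally of a gene's elements.

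Mt1 measured 56.4, 62.4, 62.2, 65.3 and 51.9 CPM in the 5 zinc libraries, against 50.9, 56.0, 54.9, 58.8 and 51.7 CPM in the 5 glutamate libraries. The groups overlapped, with zinc 5 the lowest zinc library and glutamate 4 the highest glutamate library. The fold change was 0.13 (SE 0.059) on the log2 scale, a ratio of 1.09 with a 95% interval of 0.0091 to 0.25 on the log2 scale, at an unadjusted p of 0.0363 and an edgeR adjusted p of 0.785. Mt2 measured 32.8, 35.6, 39.0, 40.9 and 31.0 CPM in the 5 zinc libraries, against 29.3, 33.2, 31.5, 36.2 and 29.1 CPM in the 5 glutamate libraries. As for Mt1, the groups overlapped, with zinc 4 the highest and zinc 5 the lowest zinc library. Its log2 fold change was 0.17 (SE 0.082), with an edgeR adjusted p of 0.832. Mt3, the brain-enriched metallothionein, had a log2 fold change of -0.060 (SE 0.087), and Mt4 did not pass the filter. Mtf1, which encodes MTF-1 itself, had 0.0027 (SE 0.065), and Mtf2, a Polycomb-linked protein in spite of its symbol, had 0.023 (SE 0.068). Of the 5 tested genes of this list, Mtf2 included, 4 had positive fold changes. The median of 0.023 was the value of Mtf2. At an unadjusted p under 0.05 stood 2, Mt1 and Mt2, both higher (40%, beside 2.69% of all genes). The median turned to -0.0057 without zinc 5 and glutamate 5, whereas Mt1 and Mt2 kept a positive sign in each of the 23 alternative fits, from 0.095 to 0.19 and from 0.12 to 0.24.

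Transporters that move zinc out of the cytosol or into it had medians close to 0. Slc30a1, the exporter at the cell surface, measured 45.4, 44.2, 44.5, 40.2 and 47.8 CPM in the 5 zinc libraries, against 48.3, 43.5, 49.5, 42.9 and 45.3 CPM in the 5 glutamate libraries. The ranges overlapped, and its log2 fold change was -0.047 (SE 0.056), with a 95% interval of -0.16 to 0.068. For Slc30a3, the vesicular transporter, the values were 3.73, 3.04, 3.53, 4.48 and 5.08 CPM with zinc and 3.46, 3.09, 3.83, 5.72 and 6.05 CPM with glutamate alone. In both groups replicates 4 and 5 were highest, and the log2 fold change was -0.17 (SE 0.17). Of 8 tested exporters 3 were higher and 5 lower, with a median of -0.022, and of 11 tested SLC39 importers 2 were higher and 9 lower, with a median of -0.036. None of the 19 had an unadjusted p under 0.05. Slc39a10, an importer, had a log2 fold change of 0.020 (SE 0.065), where zinc 5 stood at 118 CPM and the other zinc libraries at 87.1 to 94.5 CPM. Slc39a14, an importer induced in inflammation, had -0.084 (SE 0.052).

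**Figure D2:**
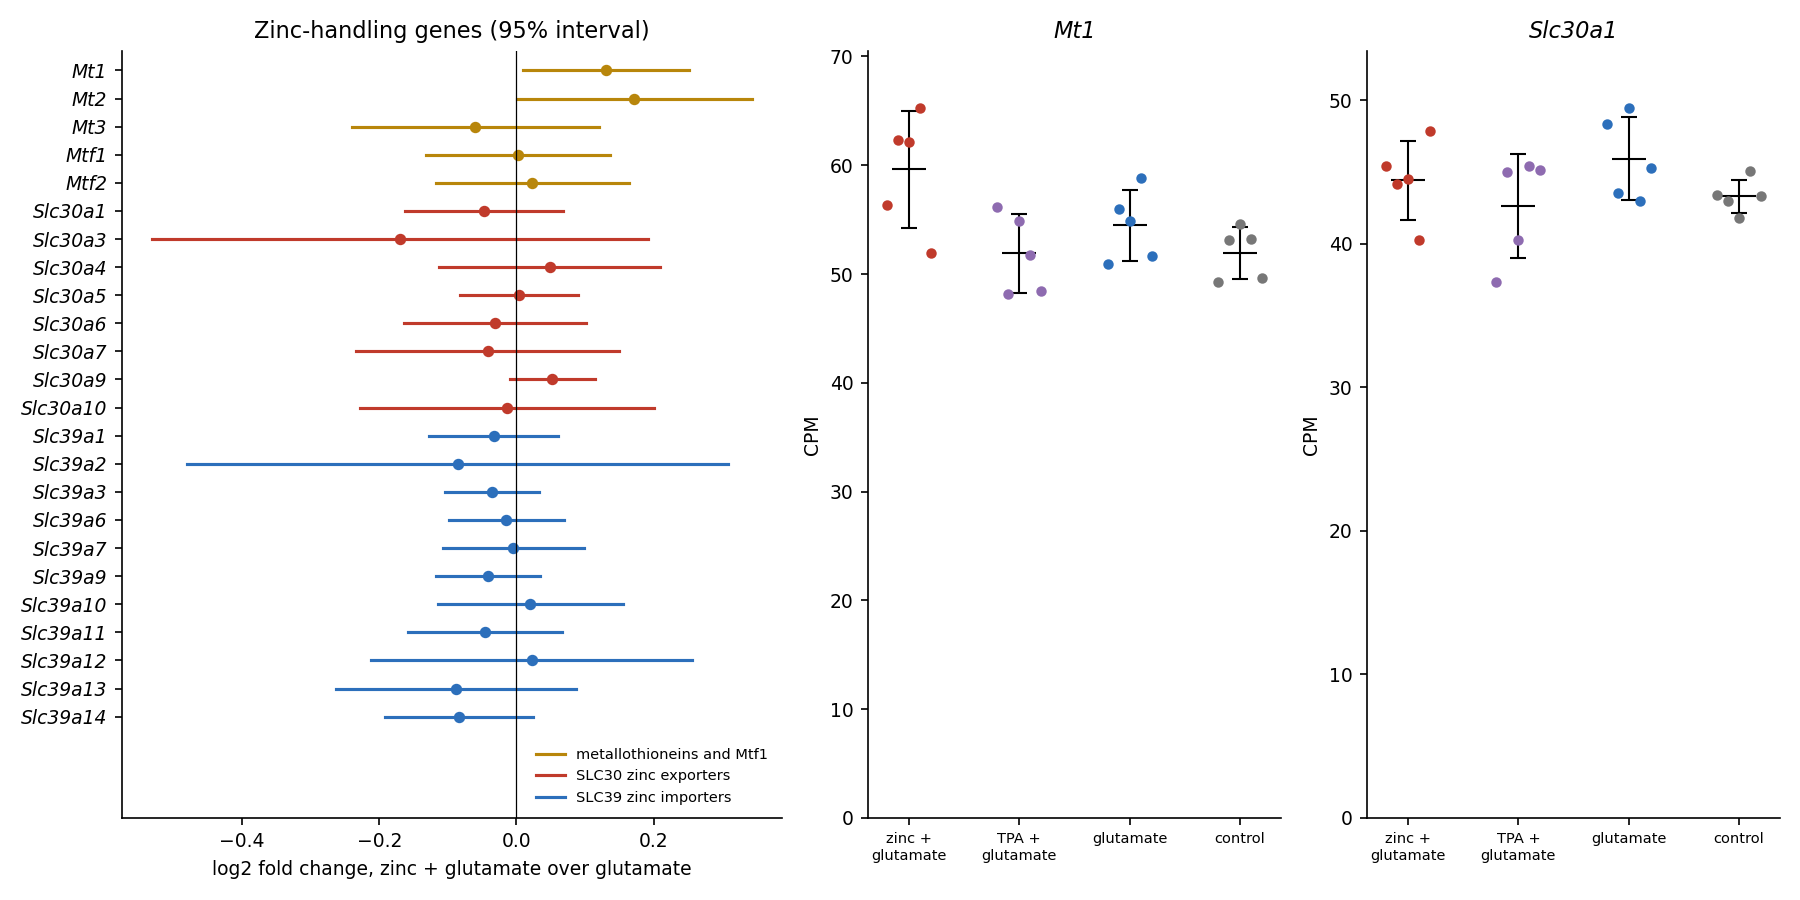
The left panel gives the log2 fold change of zinc over glutamate with its 95% interval for 24 tested metallothionein, Mtf1-named, SLC30 and SLC39 genes; the other panels give CPM of Mt1 and Slc30a1 in each library (points) with mean and SD (bars) in 4 groups of 5. The intervals of all SLC30 and SLC39 genes include 0, and those of Mt1 and Mt2 start just above it.

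Receptors and channels that zinc is known to modulate had a median of -0.072, with 3 of 15 higher and 12 lower. Zinc 1 was its lowest library (-0.24 log2 units), and without it the median was -0.026. Asic1, a proton-gated channel, was the only member at an unadjusted p under 0.05 (1 of 15, 6.67%, beside 3.3% of all genes lower), with 57.0 to 62.7 CPM with zinc and 60.4 to 67.7 CPM with glutamate alone and a log2 fold change of -0.086 (SE 0.040). The purinergic receptor gene P2rx7 had the most negative fold change of the list, -0.52 (SE 0.27), at 0.238, 0.357, 0.264, 0.334 and 0.431 CPM with zinc and 0.487, 0.363, 0.253, 0.650 and 0.541 CPM with glutamate alone. Its groups overlapped and its unadjusted p was 0.069. Grin2b, which encodes the GluN2B subunit, ranged widely, at 79.4, 113, 108, 134 and 158 CPM with zinc and 235, 152, 200.1, 61.0 and 133 CPM with glutamate alone. Glutamate 4 was the lowest of the 10 libraries and zinc 5 the highest zinc library, and the ranges overlapped. Its log2 fold change of -0.40 (SE 0.26) became -0.85 without zinc 5, glutamate 4 and glutamate 5. Grin2a, the gene of the GluN2A subunit, had a log2 fold change of -0.16 (SE 0.17), and its lowest glutamate value was also in glutamate 4.

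Klf4 and Fosb, the rapid early genes that glutamate alone raised over control, had lower means with zinc than with glutamate alone, and neither difference passed the adjusted test. Klf4 lies on chromosome 4, 55527137 to 55532475 (mm10, RefSeq annotation, as are all positions below). It measured 1.66, 1.30, 0.949, 0.919 and 1.26 CPM in the 5 zinc libraries, against 2.38, 1.82, 1.77, 2.87 and 1.70 CPM in the 5 glutamate libraries. Every zinc library was below every glutamate library, the highest zinc value being zinc 1 and the lowest glutamate value glutamate 5. The log2 fold change was -0.79 (SE 0.17), a 1.73-fold lower level, with a 95% interval of -1.14 to -0.44, an unadjusted p of 0.000107 and an edgeR adjusted p of 0.585. It was negative in each of the 23 alternative fits, from -0.93 to -0.65, and its adjusted p there ran from 0.0459 in the weighted limma-voom fit to 1.00.

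Glutamate alone raised Klf4 over control (0.715 ± 0.132 CPM) by 1.56 on the log2 scale (edgeR adjusted p = 0.000102), while zinc with glutamate differed from control by 0.77 (SE 0.20) with an edgeR adjusted p of 0.187. These contrasts share libraries with the one above, and the test of the difference between them is the zinc against glutamate test. Counted over all genes, glutamate raised 3 over control (0.0208%) and lowered 0 (0%), and zinc with glutamate raised 3 (0.0208%) and lowered 3 (0.0208%). Fosb and Nfkbiz rose in both contrasts, Klf4 in the first and Hmgb2 in the second. The 3 that fell with zinc against control were the pseudogene Tubb2a-ps2 (log2 fold change -0.37, edgeR adjusted p = 0.0126), the transporter-like gene Slc7a4 (-0.22, edgeR adjusted p = 0.0151) and the semaphorin receptor gene Plxna3 (-0.22, edgeR adjusted p = 0.0418), named after their values were seen.

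Fosb, which encodes an AP-1 subunit, lies on chromosome 7, 19302696 to 19310045. It measured 17.7, 16.8, 13.5, 11.8 and 11.8 CPM in the 5 zinc libraries, against 20.7, 17.1, 19.4, 22.0 and 14.3 CPM in the 5 glutamate libraries. Glutamate 5 lay inside the range of the zinc libraries, the other 4 glutamate libraries were above zinc 3, zinc 4 and zinc 5, and zinc 1 was above glutamate 2. The log2 fold change was -0.38 (SE 0.11), at an unadjusted p of 0.00261 and an edgeR adjusted p of 0.634. Against control (8.05 ± 0.693 CPM) Fosb rose by 0.83 on the log2 scale with zinc (edgeR adjusted p = 0.00304) and by 1.22 with glutamate alone (edgeR adjusted p = 1.31e-05).

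Btg2, an antiproliferative early gene, had 8.27, 8.86, 8.12, 6.57 and 6.03 CPM with zinc and 9.14, 8.07, 9.37, 11.2 and 8.44 CPM with glutamate alone. Zinc 4 and zinc 5 were the 2 lowest and glutamate 4 the highest. The fold change was -0.28 (SE 0.093) on the log2 scale, which became -0.15 without zinc 5, glutamate 4 and glutamate 5. Fos, the AP-1 subunit most used as a mark of neuronal activity, had 90.5, 86.0, 69.8, 48.7 and 45.5 CPM with zinc and 82.1, 71.8, 75.1, 102 and 48.7 CPM with glutamate alone. The groups overlapped widely, and replicate 5 was lowest in both. For Npas4, a neuron-specific factor induced by calcium, values were 54.3, 50.9, 38.9, 35.3 and 30.2 CPM with zinc and 53.1, 44.8, 47.4, 75.0 and 39.9 CPM with glutamate alone, again lowest in zinc 5 and glutamate 5 and highest in glutamate 4. The log2 fold changes were -0.16 (SE 0.19) for Fos and -0.31 (SE 0.16) for Npas4, and without glutamate 4 they were -0.022 and -0.14.

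Egr1, a zinc-finger factor, had a log2 fold change of -0.17 (SE 0.11) with 35.4 to 46.7 CPM with zinc and 34.7 to 57.1 CPM with glutamate alone. Arc, a synaptic regulator of AMPA receptors, had -0.23 (SE 0.12) with 3.46 to 4.18 CPM with zinc and 3.77 to 6.15 CPM with glutamate alone, and Nr4a1, an orphan nuclear receptor, -0.12 (SE 0.19) with 18.1 to 38.5 CPM with zinc and 18.0 to 39.6 CPM with glutamate alone. In these 3 genes the groups overlapped and glutamate 4 was the highest glutamate library. Of 28 tested rapid immediate early genes 8 had positive and 20 negative fold changes, with a median of -0.073. Of these, 3 had an unadjusted p under 0.05, all lower (Klf4, Fosb and Btg2; 10.7%, beside 3.3% of all genes), and Klf4 was the only one with non-overlapping groups. Across alternatives the median kept its sign in each of 23, but was -0.0045 without zinc 5, glutamate 4 and glutamate 5 and -0.020 without glutamate 4 alone.

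**Figure D3:**
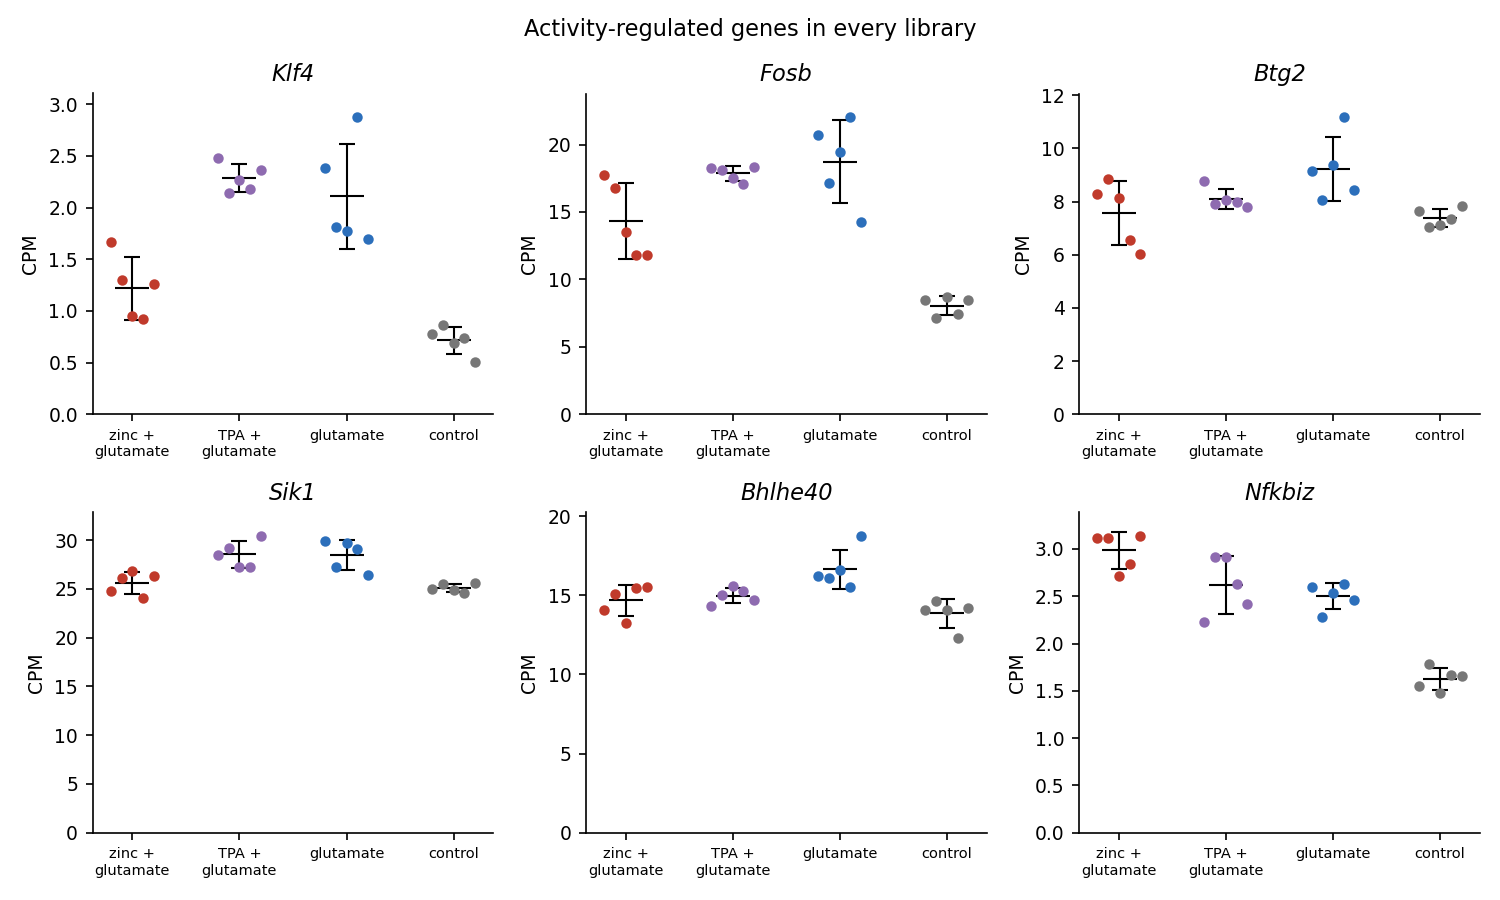
CPM of 6 activity-regulated genes in each of 20 libraries (points), with mean and SD as bars, n = 5 per group; replicates 1 to 5 run left to right within a group. Klf4 and Bhlhe40 show all zinc libraries below all glutamate libraries, Nfkbiz shows all above, and Fosb, Btg2 and Sik1 overlap.

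Later activity-regulated genes did not share a direction: 19 of 35 were higher and 16 lower, with a median of 0.025. Nfkbiz, a nuclear IκB protein that directs NF-κB to secondary response genes, lies on chromosome 16, 55811377 to 55838641 and measured 3.12, 3.12, 2.72, 2.84 and 3.14 CPM in the 5 zinc libraries, against 2.60, 2.28, 2.53, 2.62 and 2.46 CPM in the 5 glutamate libraries. All 5 zinc libraries were above all 5 glutamate libraries, with a log2 fold change of 0.26 (SE 0.091) and an edgeR adjusted p of 0.741. It rose over control (1.63 ± 0.119 CPM) by 0.87 with zinc (edgeR adjusted p = 7.72e-05) and by 0.62 with glutamate alone (edgeR adjusted p = 0.0097).

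Bhlhe40, a repressor that takes part in the circadian clock, had 14.1, 15.1, 13.3, 15.5 and 15.5 CPM in the 5 zinc libraries, against 16.2, 16.1, 16.6, 15.5 and 18.8 CPM in the 5 glutamate libraries. Every zinc library was below every glutamate library, although the highest zinc and the lowest glutamate value both round to 15.5 CPM. Its log2 fold change was -0.18 (SE 0.060) and its edgeR adjusted p 0.74. Sik1, a kinase that holds back CREB coactivators, had 24.8, 26.1, 26.8, 24.1 and 26.3 CPM with zinc and 29.9, 27.3, 29.7, 29.0 and 26.4 CPM with glutamate alone. Only zinc 3 exceeded a glutamate library, and the log2 fold change was -0.15 (SE 0.045) (edgeR adjusted p = 0.634). Trib1, a pseudokinase, had -0.25 (SE 0.10) and was the fourth delayed gene with an unadjusted p under 0.05. Of the 35 delayed genes 1 was higher at this level (2.86%, beside 2.69% of all genes) and 3 were lower (8.57%, beside 3.3%). Bdnf, the neurotrophin, had 182, 192, 177, 135 and 127 CPM with zinc and 154, 172, 156, 181 and 102 CPM with glutamate alone. Replicate 5 was lowest in both groups, and the log2 fold change of 0.090 (SE 0.13) turned to -0.029 without glutamate 5.

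Phosphatases and Sprouty proteins that feed back on MAP kinases had 5 of 16 members higher and 11 lower, with a median of -0.058, and 0 at an unadjusted p under 0.05. The delayed genes and this list were set apart in single libraries more than between groups. Glutamate 5 lay at -0.37 log2 units from the mean of the 10 libraries for the delayed list and -0.33 for the feedback list, and zinc 5 lay at -0.24 and -0.30, while zinc 2 was at 0.21 and 0.15. Without glutamate 5 the medians of zinc over glutamate were -0.048 and -0.14, and without zinc 5 they were 0.083 and 0.0024. Among 14 Krüppel-like factors 3 were higher and 11 lower, with a median of -0.074 and 3 lower at an unadjusted p under 0.05 (21.4%, beside 3.3%). Besides Klf4 these were Klf13, with 158 to 173 CPM with zinc and 166 to 195 CPM with glutamate alone and a log2 fold change of -0.14 (SE 0.045), and Klf11, with 17.1 to 19.2 CPM with zinc and 16.6 to 21.1 CPM with glutamate alone and -0.15 (SE 0.065).

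**Figure D4:**
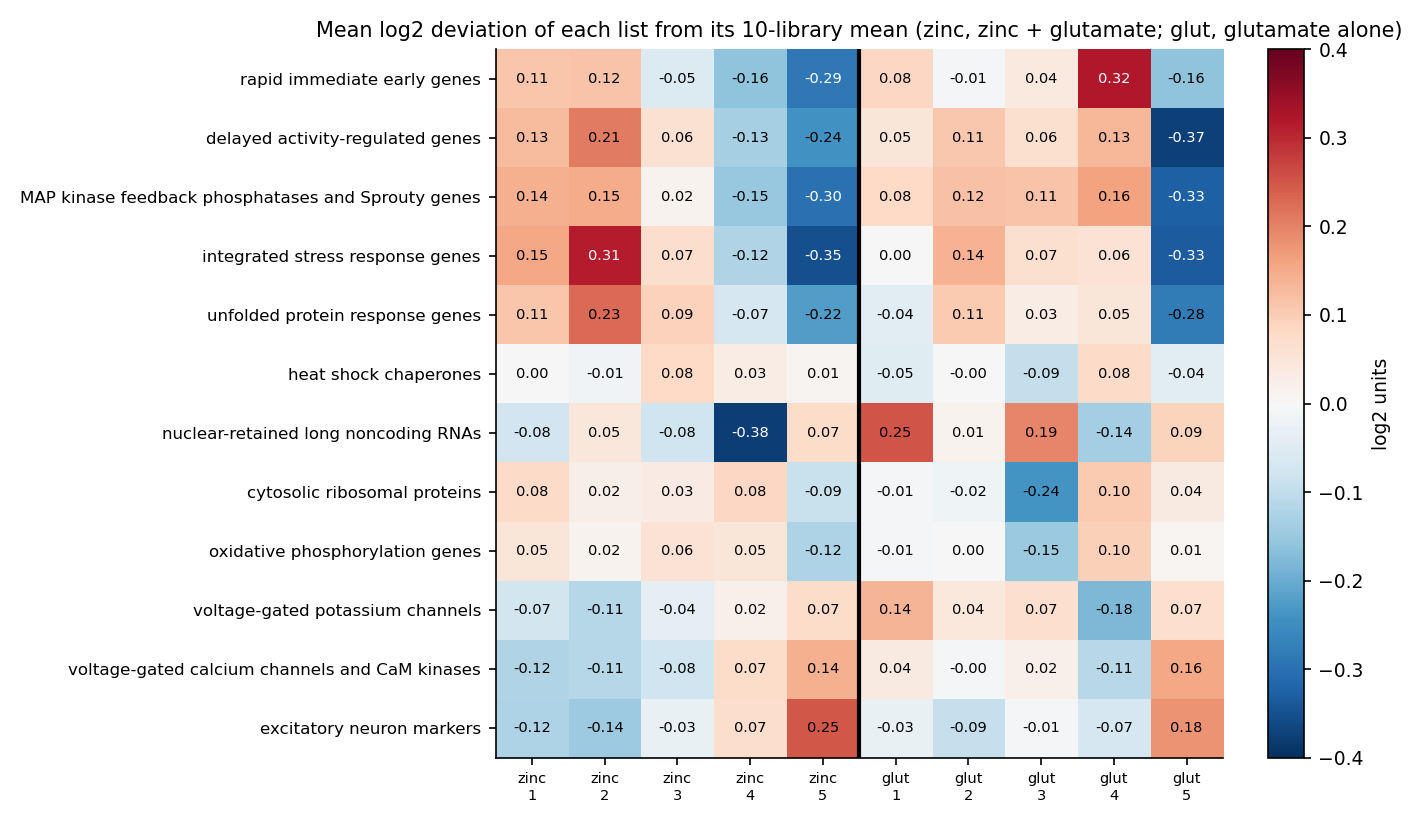
Rows are 12 gene lists and columns the 5 zinc and 5 glutamate libraries; each cell gives the mean over the list of log2 CPM minus that gene's mean over the 10 libraries. Zinc 5 and glutamate 5 are both low in the upper 5 rows, activity and stress lists (-0.16 to -0.37), and zinc 4 is lowest for the nuclear RNAs at -0.38.

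Genes higher with zinc were named from the 12 smallest p-values at a mean of at least 1 CPM, all with an edgeR adjusted p of 0.585 or more. Cd44, the receptor for hyaluronan (chromosome 2, 102811142 to 102901665), measured 7.74, 6.69, 7.17, 7.21 and 8.19 CPM in the 5 zinc libraries, against 6.22, 5.53, 5.74, 5.95 and 6.62 CPM in the 5 glutamate libraries. All zinc libraries were above all glutamate libraries, with a log2 fold change of 0.30 (SE 0.074) and an edgeR adjusted p of 0.585; in control it averaged 6.44 ± 0.307 CPM. Fam111a, a protease that acts at replication forks, had 1.66, 1.81, 2.06, 1.61 and 1.85 CPM with zinc and 1.43, 1.32, 1.49, 1.20 and 1.23 CPM with glutamate alone. Its groups did not overlap, and its log2 fold change was 0.43 (SE 0.12). Cacng3, a TARP protein that escorts AMPA receptors, had 15.2, 15.2, 14.8, 15.3 and 14.7 CPM with zinc and 12.4, 12.2, 13.8, 12.4 and 13.6 CPM with glutamate alone. Again no library overlapped, and the zinc libraries spanned only 14.7 to 15.3 CPM, with a log2 fold change of 0.22 (SE 0.061).

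Taf9, a subunit of the general transcription factor TFIID, had 77.4 to 84.6 CPM with zinc and 65.5 to 76.7 CPM with glutamate alone and a log2 fold change of 0.18 (SE 0.050), and Emc2, a subunit of the membrane protein insertase of the endoplasmic reticulum, had 62.0 to 66.9 CPM with zinc and 54.7 to 60.6 CPM with glutamate alone and 0.14 (SE 0.039). Rwdd1 had 40.8 to 45.5 CPM with zinc and 35.5 to 40.6 CPM with glutamate alone and 0.16 (SE 0.044). In these 3 genes too the groups did not overlap. Dynlt1b, a dynein light chain, had 32.7 to 35.7 CPM with zinc and 22.6 to 32.5 CPM with glutamate alone and 0.29 (SE 0.077), but it belongs to a cluster of near-identical copies, so how reads were divided among them is uncertain. Eif2s2, the beta subunit of translation initiation factor eIF2, had 166, 164, 170.1, 136 and 159.5 CPM with zinc and 141, 149.8, 138, 139.6 and 135 CPM with glutamate alone. Zinc 4 lay inside the glutamate range and the other zinc libraries above it, and the log2 fold change of 0.18 (SE 0.048) became 0.23 without zinc 4. Overlap was also seen for Mphosph10, a protein of the small ribosomal subunit processome (0.21, SE 0.055), Rsrc2, an arginine- and serine-rich protein (0.15, SE 0.041), and Gas2, an actin-associated protein of growth arrest (0.34, SE 0.10).

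Hmgb2, a chromatin protein abundant in dividing cells, had 3.75, 4.70, 4.43, 4.43 and 4.22 CPM in the 5 zinc libraries, against 2.62, 4.20, 3.41, 2.50 and 3.34 CPM in the 5 glutamate libraries. Glutamate 2 lay among the zinc libraries and the other 4 glutamate libraries were below all of them. The fold change was 0.42 (SE 0.12) on the log2 scale with an edgeR adjusted p of 0.585, and without glutamate 2 it was 0.53. Over control (2.45 ± 0.141 CPM) it rose by 0.81 with zinc (edgeR adjusted p = 0.00304), whereas glutamate alone differed from control by 0.39 (SE 0.12) with an edgeR adjusted p of 0.839.

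On the other side, Icmt (chromosome 4, 152297214 to 152307126) measured 43.3, 43.6, 43.8, 47.6 and 45.7 CPM in the 5 zinc libraries, against 49.9, 48.9, 49.8, 51.1 and 51.4 CPM in the 5 glutamate libraries. Each zinc library was below each glutamate library, with a log2 fold change of -0.16 (SE 0.036), which is 1.12-fold lower, and a 95% interval of -0.24 to -0.089. Adcy6, an adenylyl cyclase inhibited by calcium, had 36.5, 38.4, 35.6, 39.7 and 36.6 CPM with zinc and 43.4, 38.8, 44.7, 42.0 and 46.1 CPM with glutamate alone. Zinc 4 exceeded glutamate 2 and no other pair overlapped, and the log2 fold change was -0.20 (SE 0.047). Rfng, a glycosyltransferase that modifies Notch, had 53.9 to 61.2 CPM with zinc and 62.4 to 67.1 CPM with glutamate alone with a log2 fold change of -0.16 (SE 0.041), and its groups did not overlap.

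Several of the genes with the smallest p on this side encode zinc-finger proteins. Zbtb43 had 26.9 to 28.3 CPM with zinc and 29.1 to 32.1 CPM with glutamate alone, with no overlap and a log2 fold change of -0.15 (SE 0.037). Trerf1 had 5.39 to 7.63 CPM with zinc and 7.01 to 8.98 CPM with glutamate alone and -0.32 (SE 0.083), Zbtb39 12.9 to 15.7 CPM with zinc and 15.7 to 18.1 CPM with glutamate alone and -0.23 (SE 0.061), Hic2 5.38 to 6.47 CPM with zinc and 6.07 to 8.50 CPM with glutamate alone and -0.30 (SE 0.079), and Zfp111 6.56 to 7.29 CPM with zinc and 7.29 to 8.57 CPM with glutamate alone and -0.24 (SE 0.063), each with some overlap between the groups. These genes encode zinc-finger proteins, but the share of such genes among all tested genes was not counted, and the class was not tested. The peptidase-like gene Rnpepl1 had -0.21 (SE 0.053). Of the genes with the smallest p in either direction, Klf4, Icmt, Adcy6, Zbtb43, Trerf1, Rnpepl1, Zbtb39, Dynlt1b, Eif2s2 and Taf9 passed the threshold in the weighted limma-voom fit. That fit called 107 of all 14411 genes. It used the same libraries by which these genes were picked, so their passing is not independent support.

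The zinc group could also be set against the TPA group, which had the chelator for 1 min before glutamate and during it. How much zinc TPA bound was not measured here. At an edgeR adjusted p under 0.05, 23 genes were higher with zinc than with TPA (0.16%) and 51 lower (0.354%). Of the 139 genes the naming rule took, 7 were among those higher and 8 among those lower, but the rule and this contrast use the same zinc libraries. Klf4 fell to 1.22 ± 0.304 CPM with zinc, against 2.29 ± 0.138 CPM with TPA (log2 fold change -0.91, edgeR adjusted p = 0.0199). Cacng3 rose by 0.34 over TPA (edgeR adjusted p = 0.0187) and Eif2s2 by 0.21 (edgeR adjusted p = 0.0451), and Icmt, Adcy6 and Rfng fell by 0.19, 0.27 and 0.21 on the log2 scale (edgeR adjusted p = 0.023, 0.0169 and 0.026).

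Long noncoding RNAs kept in the nucleus were mostly lower with zinc: 9 of 11 tested members had negative and 2 positive fold changes, with a median of -0.13. Of these, 3 had an unadjusted p under 0.05, all lower (27.3%, beside 3.3% of all genes), and 0 passed the adjusted test. This list was chosen with earlier results of these data known, so its share is a description and not a test. Miat, a large spliced RNA that gathers in nuclear foci (chromosome 5, 112213228 to 112228948), measured 106, 92.7, 90.0, 92.4 and 106 CPM in the 5 zinc libraries, against 154, 96.5, 124, 143 and 146 CPM in the 5 glutamate libraries. Glutamate 2 was within the zinc range and the other 4 glutamate libraries above it. Its log2 fold change was -0.45 (SE 0.11) with an edgeR adjusted p of 0.585, and without glutamate 2 it was -0.54 and passed at an edgeR adjusted p of 0.0443. Neat1, the scaffold of paraspeckles, had 0.291, 0.587, 0.501, 0.418 and 0.646 CPM with zinc and 0.730, 0.701, 0.985, 0.550 and 0.984 CPM with glutamate alone, and Snhg11 had 80.5, 75.6, 66.0, 54.8 and 70.9 CPM with zinc and 92.4, 69.6, 83.9, 94.8 and 79.1 CPM with glutamate alone. For both, at least 1 zinc library lay within the glutamate range, and the log2 fold changes were -0.69 (SE 0.20) and -0.27 (SE 0.10). Neat1 counts were few, at under 1 CPM in every library. The list moved with single libraries, at -0.38 log2 units in zinc 4, 0.25 in glutamate 1 and 0.19 in glutamate 3, and their part in the difference was not tested beyond leaving them out. Without zinc 4 the median was -0.074.

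Messenger RNAs of the protein synthesis and energy machinery showed small positive medians. Of 80 cytosolic ribosomal protein genes 62 were higher and 18 lower, with a median of 0.046, and 1, Rpl10, had an unadjusted p under 0.05 (0.11, SE 0.051). Of 76 nuclear oxidative phosphorylation genes 53 were higher and 23 lower, with a median of 0.024 and 4 higher at an unadjusted p under 0.05 (5.26%), namely Ndufa10 of complex I (0.079, SE 0.037), Atp5c1 of ATP synthase (0.075, SE 0.035), Uqcrb of complex III (0.13, SE 0.048) and Cycs, cytochrome c (0.13, SE 0.052). Glutamate 3 was the lowest library for both lists (-0.24 and -0.15 log2 units), and without it the medians were -0.0072 and -0.014. The share of all genes higher at an unadjusted p under 0.05 was 2.69%, above that of the ribosomal list. Ribosomal protein genes have many processed copies in the genome, so their counts are uncertain.

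Genes that build ribosomes in the nucleolus had 23 of 33 members higher and 10 lower, a median of 0.025, and 4 higher at an unadjusted p under 0.05 (12.1%, beside 2.69% of all genes). Fbl, the methyltransferase fibrillarin, had 29.3 to 32.1 CPM with zinc and 26.5 to 30.4 CPM with glutamate alone and a log2 fold change of 0.13 (SE 0.044). For Ddx10, an RNA helicase, the values were 29.6 to 32.9 CPM with zinc and 27.5 to 30.8 CPM with glutamate alone and 0.13 (SE 0.047), and for Ncl, nucleolin, 489 to 535 CPM with zinc and 459.6 to 497 CPM with glutamate alone and 0.10 (SE 0.035). In each of these the 2 groups overlapped, and Npm1, nucleophosmin, had 0.10 (SE 0.047).

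Among 21 heat shock chaperones, which refold proteins in the cytosol and mitochondria, 16 were higher and 5 lower, with a median of 0.066 that was 0.035 without glutamate 3. Of these, 2 were higher at an unadjusted p under 0.05 (9.52%, beside 2.69% of all genes). Hsp90aa1, the inducible cytosolic HSP90, had 1476, 1441, 1538, 1402 and 1549 CPM with zinc and 1375, 1408, 1282, 1410.2 and 1388 CPM with glutamate alone. Zinc 4 fell between glutamate libraries, and glutamate 3 was lowest, with a log2 fold change of 0.11 (SE 0.034) and an edgeR adjusted p of 0.718. Dnaja1, its HSP40 partner, had 362 to 463 CPM with zinc and 358 to 407 CPM with glutamate alone and 0.12 (SE 0.055). Of 20 genes of the unfolded protein response in the endoplasmic reticulum 17 were higher and 3 lower, with a median of 0.064 and 0 at an unadjusted p under 0.05. Its named members were the factor Xbp1 (0.089, SE 0.049), the calcium-binding chaperone Calr (0.082, SE 0.047) and the disulfide isomerase Pdia3 (0.065, SE 0.038). This median rested on zinc 2, the highest library of the list (0.23 log2 units), and was -0.0036 without it.

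Other stress pathways gave medians near 0. For 18 ATF4-linked genes of the integrated stress response it was 0.035 (14 higher, 4 lower), and it turned to -0.033 without glutamate 5. Here single libraries were far apart, with zinc 2 at 0.31 and zinc 5 at -0.35 log2 units, and glutamate 5 at -0.33. Psat1 and Phgdh, enzymes of serine synthesis and ATF4 targets, had 0.12 (SE 0.10) and 0.083 (SE 0.075). Slc7a5, the other member of this list that the rule took, had a log2 fold change of -0.053, negative in each of the 23 alternative fits. For 17 NRF2 antioxidant genes the median was 0.024 (11 higher, 6 lower), with Gclc, which limits glutathione synthesis, at 0.059 (SE 0.037) and Nqo1, a quinone reductase, at 0.23 (SE 0.22). For 15 p53 pathway genes it was 0.0082 (10 higher, 5 lower). Apart from Btg2, a member of the last list, 0 genes of these 3 lists had an unadjusted p under 0.05. Btg2 made up 6.67% of its list, beside 3.3% of all genes lower at this level.

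Synaptic gene families had medians between -0.052 and 0.038, beside 0.00065 over all genes. NMDA receptor genes had 3 of 7 higher and 4 lower (median -0.037), and kainate receptor genes had 3 of 7 higher and 4 lower (-0.052). The AMPA receptor and TARP list had 8 of 17 higher and 9 lower (-0.0029), with Cacng3 its only member at an unadjusted p under 0.05. Metabotropic glutamate receptors had 2 of 7 higher and 5 lower (-0.017), and GABA receptors 11 of 16 higher and 5 lower (0.038). Of these medians that of the GABA receptors turned to -0.014 without zinc 5 and to -0.034 without zinc 5, glutamate 4 and glutamate 5, and that of the kainate receptors to 0.0020 without glutamate 5. The NMDA receptor median turned to 0.016 without zinc 1, the metabotropic one to 0.0058 without zinc 3, and the AMPA receptor one to 0.043 without glutamate 5. Of the GABA receptors Gabrr1, a rho subunit of low abundance, had 0.891 to 1.23 CPM with zinc and 0.703 to 0.929 CPM with glutamate alone and a log2 fold change of 0.40 (SE 0.16). Gabrg3, a gamma subunit, had 5.87 to 7.99 CPM with zinc and 6.57 to 9.73 CPM with glutamate alone and -0.21 (SE 0.12). Postsynaptic scaffolds had 4 of 17 higher and 13 lower (-0.034), and presynaptic release genes 17 of 27 higher and 10 lower (0.013, and -0.014 without zinc 5). Apart from Cacng3 and Gabrr1, 0 members of these 7 lists had an unadjusted p under 0.05. Cacng3 made up 5.88% of its list and Gabrr1 6.25%, beside 2.69% of all genes higher at this level.

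Voltage-gated potassium channels had 7 of 33 members higher and 26 lower, with a median of -0.044, and 3 lower at an unadjusted p under 0.05 (9.09%, beside 3.3% of all genes). Kcnc1, the Kv3.1 channel of fast-spiking neurons, had 67.2, 72.1, 69.1, 79.9 and 77.5 CPM with zinc and 91.9, 82.5, 87.6, 70.6 and 87.2 CPM with glutamate alone. Glutamate 4 was the only glutamate library inside the zinc range. Its log2 fold change of -0.20 (SE 0.062) was -0.25 without glutamate 4 and -0.30 in the weighted limma-voom fit, where it passed at an adjusted p of 0.0316. Kcnh1, an ether-à-go-go channel, had 31.1 to 33.6 CPM with zinc and 32.0 to 36.8 CPM with glutamate alone and -0.10 (SE 0.041), and its groups overlapped. Voltage-gated calcium channels and calmodulin kinases had 7 of 26 higher and 19 lower, with a median of -0.035 and 0 at an unadjusted p under 0.05. Camkk2, a kinase that activates CaM kinases, had the smallest p of that list, with 79.6 to 118 CPM with zinc and 92.5 to 136 CPM with glutamate alone and a log2 fold change of -0.17 (SE 0.10).

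The list of actin-linked genes was also chosen with earlier results of these data known. It had 10 of 25 members higher and 15 lower, with a median of -0.032. At an unadjusted p under 0.05 stood 6 of them, all lower (24.0%, beside 3.3% of all genes). Flna, filamin A, had 173, 172, 158, 178 and 189.5 CPM with zinc and 215, 162, 191, 205 and 225 CPM with glutamate alone. Glutamate 2 was the lowest of all 10 libraries but 1, and the other glutamate libraries were above every zinc library. The fold change was -0.20 (SE 0.073) on the log2 scale. Srf, the factor that drives many actin genes and early genes, had 41.8 to 48.4 CPM with zinc and 47.0 to 53.1 CPM with glutamate alone and -0.15 (SE 0.058). Also among them were the smooth muscle actin Acta2 (-0.69, SE 0.30), the non-muscle myosin Myh9 (-0.14, SE 0.057) and Vasp (-0.12, SE 0.054), which promotes filament growth. The median was 0.013 without glutamate 4 and 0.011 without zinc 5, glutamate 4 and glutamate 5.

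**Figure D5:**
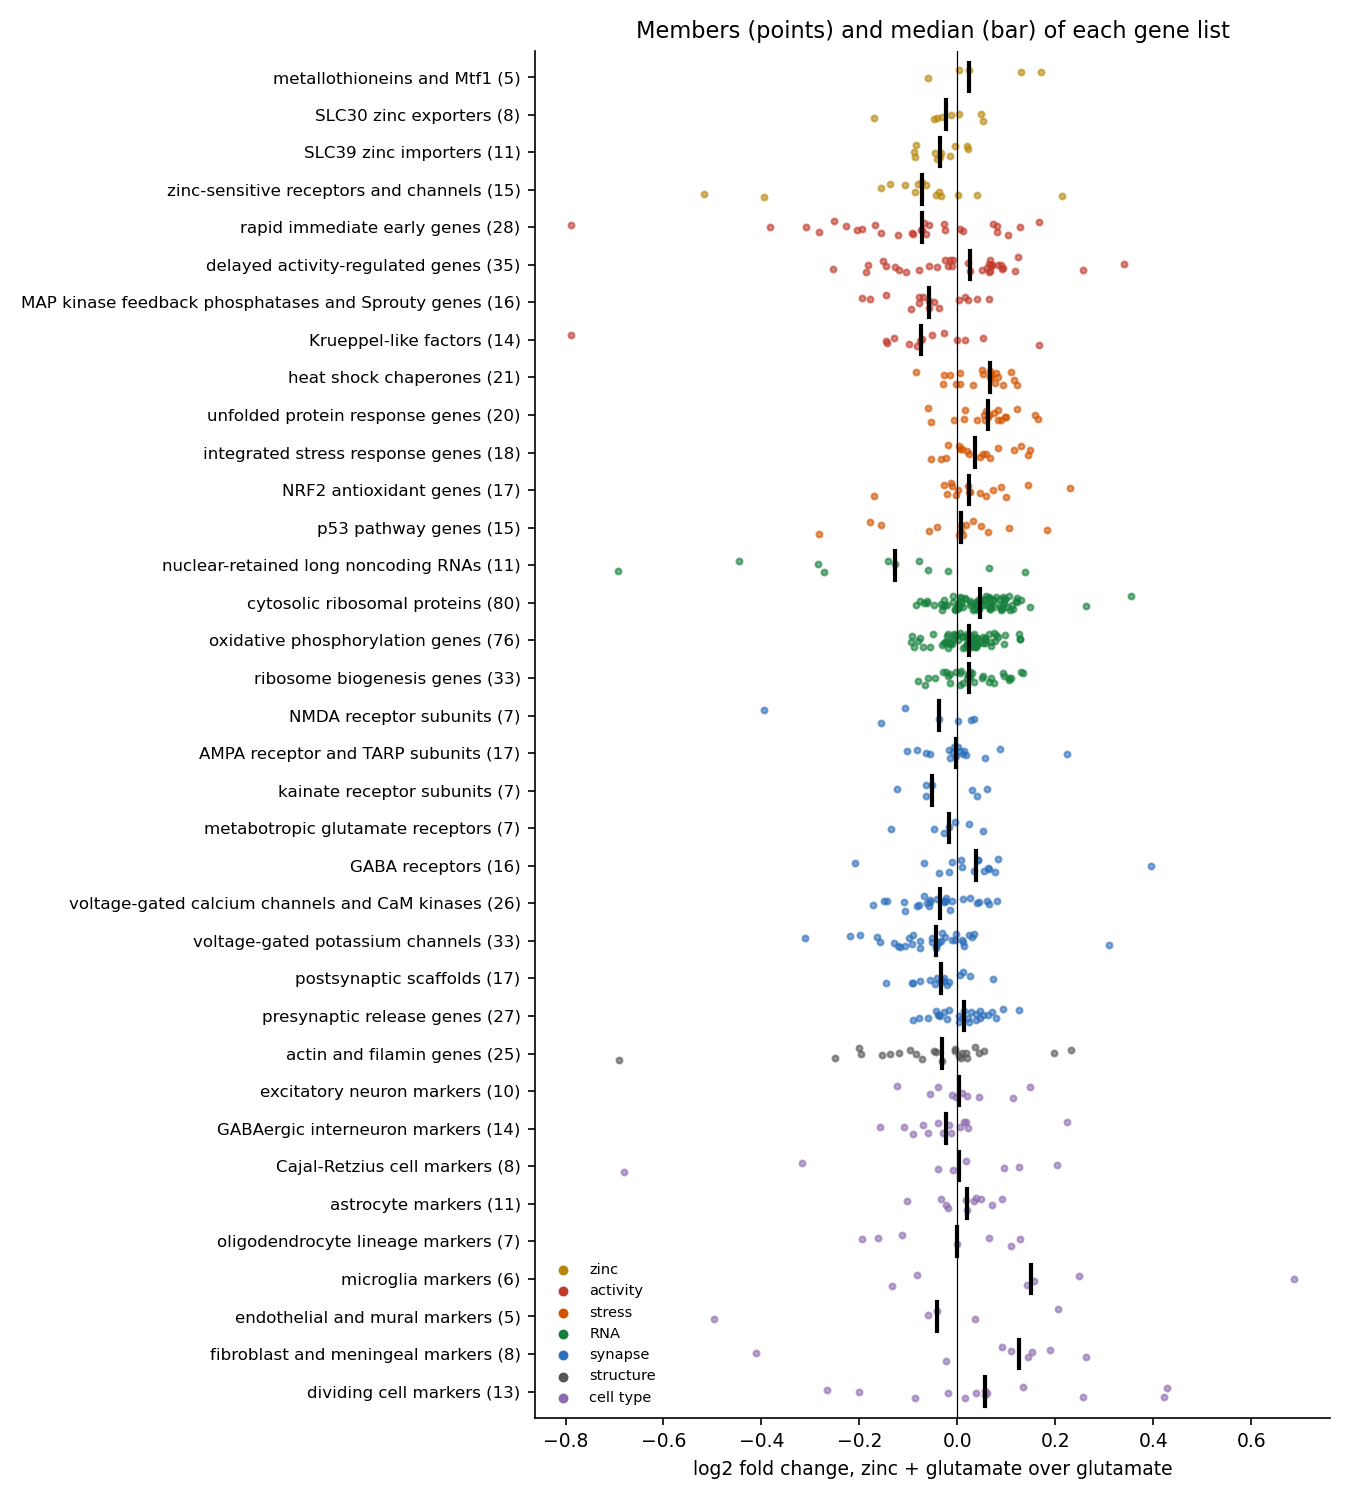
Each row is 1 of 36 gene lists with its number of tested members, each point a member's log2 fold change of zinc over glutamate, and each black bar the list's median; colours give the kind of list. Medians lie between -0.13 (nuclear-retained RNAs) and 0.15 (microglia markers), and most points lie within 0.2 of 0.

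The summed levels of every cell type list overlapped between the groups; the lists hold different numbers of genes, so their sums are compared only within a list. Excitatory neuron markers summed to 1781 to 2412 CPM in zinc libraries and 1864 to 2342 CPM in glutamate libraries, with 5 of 10 higher and a median of 0.0036. GABAergic interneuron markers summed to 2128 to 2336 CPM with zinc and 1934 to 2473 CPM with glutamate alone (5 of 14 higher, median -0.023), and Cajal-Retzius markers to 885 to 977 CPM with zinc and 781 to 1056 CPM with glutamate alone (4 of 8 higher, median 0.0042). Reln and Calb2 belong to both of these lists, so their sums are not independent. Pdgfra likewise belongs to both the oligodendrocyte and the fibroblast and meningeal lists. Lhx1, a Cajal-Retzius factor of low abundance, had 0.317, 0.179, 0.264, 0.278 and 0.277 CPM with zinc and 0.541, 0.545, 0.253, 0.350 and 0.418 CPM with glutamate alone. Glutamate 3 lay inside the zinc range and the other 4 glutamate libraries above it, on few counts, and the log2 fold change was -0.68 (SE 0.37) with an unadjusted p of 0.0773. Prox1, a marker of dentate granule neurons of the hippocampus, had 6.39 to 13.2 CPM with zinc and 7.79 to 15.1 CPM with glutamate alone and was highest in replicate 5 of both groups. Its log2 fold change was -0.12 (SE 0.20).

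Astrocyte markers summed to 861 to 1036 CPM with zinc and 885 to 1051 CPM with glutamate alone (7 of 11 higher, median 0.019). Oligodendrocyte lineage markers summed to 32.1 to 34.7 CPM with zinc and 31.9 to 39.9 CPM with glutamate alone (3 of 7 higher). Cnp, a myelin enzyme, was the only member at an unadjusted p under 0.05 (1 of 7, 14.3%, beside 3.3% of all genes lower), at -0.16 (SE 0.075). Of that lineage's defining genes Sox10, Mog and Mag were below the filter, with 1, 13 and 14 counts summed over the 10 libraries. For microglia the sums were 3.54 to 5.63 CPM with zinc and 2.89 to 5.36 CPM with glutamate alone, with a median of 0.15 over 6 tested members (4 higher). Aif1 was the only member at an unadjusted p under 0.05 (1 of 6, 16.7%, beside 2.69% of all genes higher), at 0.69 (SE 0.27). The microglia median turned to -0.15 without zinc 5, and Cx3cr1, P2ry12, Tmem119, Itgam and Trem2 were below the filter, at 14 counts or fewer per library. Marker genes of endothelial and mural cells summed to 9.57 to 11.97 CPM with zinc and 10.6 to 11.2 CPM with glutamate alone (2 of 5 higher), with Cldn5, Cdh5, Flt1, Tek and Kcnj8 below the filter. Pdgfrb, a pericyte receptor, was the only member at an unadjusted p under 0.05 (1 of 5, 20%, beside 3.3% of all genes lower), at -0.50 (SE 0.22). Summed fibroblast and meningeal markers came to 6.29 to 7.91 CPM with zinc and 5.54 to 8.19 CPM with glutamate alone (6 of 8 higher, median 0.13).

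Dividing cell markers are likewise a list chosen with earlier results of these data known. They summed to 74.1 to 80.2 CPM with zinc and 73.2 to 77.5 CPM with glutamate alone. Of 13 members 9 were higher and 4 lower, with a median of 0.056, and 3 were higher at an unadjusted p under 0.05 (23.1%, beside 2.69% of all genes). Beside Hmgb2 these were Nusap1, a spindle protein with 2.48, 2.58, 2.74, 2.42 and 3.20 CPM with zinc and 2.30, 2.05, 2.22, 2.65 and 1.99 CPM with glutamate alone, and Cenpf, a kinetochore protein with 1.69, 2.12, 2.03, 1.75 and 2.34 CPM with zinc and 1.73, 1.40, 1.49, 0.950 and 1.80 CPM with glutamate alone. For both the groups overlapped, and the log2 fold changes were 0.26 (SE 0.10) and 0.43 (SE 0.17). Against control Hmgb2 rose, as given above, while Nusap1 had 0.42 (SE 0.10) at an edgeR adjusted p of 0.147 and Cenpf 0.20 (SE 0.16) at 0.689.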

How the data were processed

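PolyA RNA libraries of 20 cultures, 5 per group, were made with a stranded kit, per the labels' protocols. Per the submitters' processing notes, which give no order, the build was mm10 and the authors used HISAT2 2.1.0, Trimmomatic 0.36, featureCounts, SAMtools 1.3.1, and DESeq2 1.14.1 with R 3.3.0; in the sources used here, no strand setting of the counting is given, so overlapping and antisense genes are uncertain. The main data were the raw counts per gene deposited by the authors. The authors' deposited table of this comparison, with base means (signal), shrunken log2 fold changes, Wald statistics (a score) and p-values, was used only where it is named. The TPM values and gene lengths deposited by the authors entered no test.

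Counts were filtered with filterByExpr, scaled by TMM and fitted with 1 mean per group over all 20 libraries by edgeR 4.0.16 in R 4.3.3 (robust quasi-likelihood, Benjamini-Hochberg adjustment over 14411 genes, threshold 0.05). Here and in the text zinc, glutamate and a number name the library of that replicate. CPM are counts scaled by library size times the TMM factor; list deviations use log2 CPM with a prior count of 2. The fit was also run on simulated counts, and the outcome is not given here. These counts held no shift of a library shared across genes, unlike the libraries described above. Precision is given by intervals of 95%, per gene.

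Alternatives were DESeq2 1.42.0, limma 3.58.1 voom without and with library weights, other scalings and filters, the 2 groups alone, a GC offset, the replicate number as a block, and leaving out libraries. Genes were named by a rule: the 12 smallest p in each direction and the 5 largest folds in each direction at an unadjusted p under 0.05, both at a mean of at least 1 CPM, 12 fixed genes, and up to 3 members with the smallest p in each of 36 lists. The comparison, the lists, the rule and the settings were chosen with earlier results of these data known. Some genes that the rule takes are not reported here. Members named beyond the rule, as those with an unadjusted p under 0.05 in a list, were chosen after their values were seen.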

Additional observations from a re-analysis of the deposited data

Results flagged for a closer look

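In 18 of 350 groups of 5 values 1 library stood apart from the other 4 of its group, by the gap of the end value over the group's range; chance alone flags about 1 group in 20.

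Zinc 5 stood apart in 5 of them. Its Taf9 level was 84.6 CPM where the other zinc libraries had 77.4 to 78.6 CPM, and its Slc39a10 level was 118 CPM against 87.1 to 94.5 CPM. Homer3, a postsynaptic scaffold, was at 12.2 CPM there and at 14.1 to 14.6 CPM in the others, and Slc32a1, the vesicular GABA transporter, at 90.4 CPM and at 108 to 112 CPM. Its oxidative phosphorylation genes lay at -0.12 log2 units from the mean of the 10 libraries, with the others at 0.015 to 0.058. In zinc 4 Klf11 was at 19.2 CPM (others 17.1 to 17.4) and Kcnh1 at 33.6 CPM (others 31.1 to 31.6), and in zinc 1 Ddx10 was at 29.6 CPM (others 32.0 to 32.9) and Col1a1, a collagen gene, at 1.03 CPM (others 0.369 to 0.554).

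Glutamate 5 stood apart in 6. Dnaja1 was at 407 CPM there (other glutamate libraries 358 to 372), Prox1 at 15.1 CPM (7.79 to 9.41), Slc32a1 at 96.7 CPM (113 to 115) and Cxcr4, a chemokine receptor gene, at 5.63 CPM (4.42 to 4.59). The delayed activity-regulated genes lay at -0.37 log2 units there (others 0.048 to 0.13) and the MAP kinase feedback genes at -0.33 (others 0.080 to 0.16). In glutamate 4 Grm3, a metabotropic receptor gene, was at 11.6 CPM (others 18.6 to 20.5) and the kainate receptor list at -0.11 log2 units (others 0.016 to 0.062), and in glutamate 3 Hsp90aa1 was at 1282 CPM (others 1375 to 1410.2).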

How the results depend on the processing

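The count past the threshold was 0 with library size alone, with the size factors of DESeq2, with limma-voom, either other filter, the 2 groups alone, a GC offset and without zinc 5 and glutamate 5. It was 2 with DESeq2, 107 with weighted limma-voom and 1, Elk4, without zinc 5, glutamate 4 and glutamate 5. Leaving out 1 library gave 0 to 3, with 3 without glutamate 2, 2 without zinc 4 and 0 otherwise; the cause was not tested. The count at an unadjusted p under 0.05 ran from 487 (the 2 groups alone) to 2657 (weighted limma-voom), and was 569, 1601 and 1345 without zinc 3, zinc 4 and glutamate 4. Same-numbered zinc and glutamate libraries deviated together with correlations of 0.0496, 0.229, 0.0236, 0.0632 and 0.497, so the numbers are not shown to pair them; with the replicate block 0 genes passed, 973 had an unadjusted p under 0.05 and Klf4 had an edgeR adjusted p of 0.299, and with block and GC offset the counts were 0 and 904.

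Of 139 genes 123 kept their sign in all 23 alternatives, and 14 of 36 list medians did. Log2 fold changes turned as follows. Weighted limma-voom gave Slc39a10 -0.032, Mt3 0.037, Grm5 -0.019, Olig1 0.043 and Cspg4 -0.080. Without the 3 farthest libraries Egr1 was 0.0033, Slc39a10 -0.042, Mt3 0.077, Slc30a3 0.094, Grm5 -0.079, Homer3 0.0050, Aldh1l1 0.021, Olig1 0.21, Cspg4 -0.010 and Col1a1 0.081. Slc39a10 was -0.0025 with block and GC offset and -0.022 without the farthest library of each group. Leaving out 1 library at a time gave ranges of -0.27 to 0.0041 for Nr4a1, -0.056 to 0.053 for Slc39a10, -0.12 to 0.028 for Mt3, -0.048 to 0.10 for Grm5, -0.11 to 0.028 for Grm2, -0.11 to 0.0021 for Grik4, -0.33 to 0.032 for Olig1, -0.23 to 0.76 for C1qc, -0.029 to 0.17 for Bdnf and -0.29 to 0.079 for Prox1. Depth limits the genes under 1 CPM most, such as Neat1.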

Other observations

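Of the genes named by the rule on large folds, Mir6236 and Lars2 had the most negative log2 fold changes, set by the same 2 libraries. Lars2, the leucyl-tRNA synthetase of mitochondria, had 332, 364, 313, 256 and 259.8 CPM in the 5 zinc libraries, against 998, 280.2, 970.5, 237 and 371 CPM in the 5 glutamate libraries. Glutamate 1 and glutamate 3 were far above the other 8 libraries, which had 237 to 371 CPM, and the log2 fold change was -0.90 (SE 0.34) with an edgeR adjusted p of 0.753. The gene row Mir6236, which counts reads over that locus and does not measure a mature miRNA, had 1.45, 1.40, 0.949, 0.891 and 0.338 CPM in the 5 zinc libraries, against 6.06, 1.51, 6.22, 0.800 and 1.43 CPM in the 5 glutamate libraries. It was high in the same 2 glutamate libraries, and its log2 fold change was -1.63 (SE 0.50). The Lars2 row likewise counts all reads over that gene. Whether reads of either row come from other transcripts was not tested.

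Kcnj2, an inward rectifier potassium channel gene, had 8.98, 6.97, 7.62, 5.18 and 6.12 CPM in the 5 zinc libraries, against 13.6, 8.56, 12.1, 9.42 and 7.01 CPM in the 5 glutamate libraries. Glutamate 2 and glutamate 5 lay inside the zinc range and the other 3 glutamate libraries above it, and the log2 fold change was -0.53 (SE 0.16) with an edgeR adjusted p of 0.634. On the other side Ugt8a, which makes the myelin lipid galactosylceramide, had 1.03 to 1.45 CPM with zinc and 0.649 to 1.14 CPM with glutamate alone and 0.48 (SE 0.16), and Gsap, a gamma-secretase activating protein gene, had 1.50 to 1.96 CPM with zinc and 1.11 to 1.57 CPM with glutamate alone and 0.44 (SE 0.15). Slc22a29, Tmsb15l and Zfp114 had log2 fold changes of 0.52 (SE 0.24), 0.47 (SE 0.17) and 0.46 (SE 0.21), with an edgeR adjusted p of 0.804, 0.741 and 0.805.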
